A study of Mus musculus with 4 samples.

Results

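This account covers 39 imprinted genes of the mouse that lie outside the Dlk1 locus, and the methylated DNA found over them in pancreatic islets. The genes are H19, Igf2, Kcnq1, Kcnq1ot1, Cdkn1c, Phlda2, Slc22a18, Peg3, Usp29, Zim1, Snrpn, Ndn, Magel2, Mkrn3, Ube3a, Mest, Copg2, Plagl1, Grb10, Ddc, Gnas, Nespas, Peg10, Sgce, Nnat, Impact, Igf2r, Airn, Zrsr1, Commd1, Mcts2, H13, Inpp5f, Rasgrf1, Peg13, Trappc9, Kcnk9, Nap1l5 and Herc3. They were taken from a list of known imprinted genes and not by any measured value, though with earlier results of these data known. A methylated region belonged to a gene when it touched the body of the gene or its upstream 5 kb in the GENCODE M21 annotation of GRCm38 (mm10). By this rule 266 of the 186169 merged regions belonged to the genes, and each of the 39 genes had at least 1. All 4 libraries had a peak in 101 of the 266.

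The study asked whether loss of Raptor, the scaffold that defines the kinase complex mTORC1, alters DNA methylation in beta cells. Islets came from mice that were 8 weeks old and labelled C57BL/6, with 2 libraries from WT and 2 from βRapKO animals. Both genotypes carried the loxP-flanked Raptor allele on both chromosomes (Raptor lox/lox), and the βRapKO mice also carried RipCre, the Cre recombinase under the rat insulin promoter. Deletion is thus directed to beta cells, whereas islets also hold alpha, delta and other cells whose Raptor is not targeted. In whole islets, a different share of cells and a different methylation per cell cannot be told apart. The labels do not say whether a library came from 1 animal or from a pool, so the p-values measure only the spread between these libraries. Tags on DNA are no check of the Raptor deletion.

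In MeDIP-seq, an antibody against methylated cytosine pulls down sheared DNA, and the sequenced tags pile up where methylated CpG sites stand close together. Peaks had been called in each library on its own, and each peak came with the count of its tags. After duplicates were removed, 25585533 to 31330751 tags were left per library, of which 29.2% to 35.4% lay in peaks. Peaks that shared at least 1 bp were joined into regions. Tags were expressed as CPM, the tags per 1000000 tags kept in the library, and tag density as CPM divided by the width of the peak in kb. A region without a peak in a library has no count there, which does not mean that it had no tags. The WT peaks were narrower, with a median of 1059 and 938 bp against 1102 and 1150 bp in βRapKO, so counts and densities can differ in direction.

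Imprinted genes are expressed from only 1 parental allele. Each cluster is governed by a germline imprinted control region, a CpG-rich stretch that acquires methylation in either the egg or the sperm through DNMT3A and DNMT3L and then keeps it on that allele in every somatic tissue. Maintenance relies on DNMT1 with UHRF1, and on the zinc finger protein ZFP57, which binds the methylated hexamer TGCCGC and recruits TRIM28. In most control regions the egg provides the methylation, and the region is the promoter of a paternally expressed gene or noncoding RNA. In the H19 and Rasgrf1 clusters the sperm provides it. Control regions are therefore places where MeDIP tags can be read against a known state.

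The stretches shown next are windows of 300 bases of GRCm38 sequence, taken within 6 of the methylated control regions on the forward strand. They come from some of the clusters described below and differ in how many ZFP57 hexamers they hold. Capitals mark the hexamer TGCCGC or, on the other strand, GCGGCA.
Kcnq1ot1, chr7:143295304-143295603: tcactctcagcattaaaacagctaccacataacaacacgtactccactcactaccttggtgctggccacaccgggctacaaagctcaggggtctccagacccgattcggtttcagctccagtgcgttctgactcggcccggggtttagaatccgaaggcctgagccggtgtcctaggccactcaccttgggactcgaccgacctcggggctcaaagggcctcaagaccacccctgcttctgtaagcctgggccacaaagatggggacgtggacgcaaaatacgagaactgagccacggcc
Peg3, chr7:6729949-6730248: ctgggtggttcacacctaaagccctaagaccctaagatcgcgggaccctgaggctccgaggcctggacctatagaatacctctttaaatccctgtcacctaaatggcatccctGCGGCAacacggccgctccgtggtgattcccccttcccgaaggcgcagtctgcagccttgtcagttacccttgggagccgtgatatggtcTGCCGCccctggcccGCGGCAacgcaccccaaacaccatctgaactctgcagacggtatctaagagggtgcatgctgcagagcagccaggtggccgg
Snrpn, chr7:60004110-60004409: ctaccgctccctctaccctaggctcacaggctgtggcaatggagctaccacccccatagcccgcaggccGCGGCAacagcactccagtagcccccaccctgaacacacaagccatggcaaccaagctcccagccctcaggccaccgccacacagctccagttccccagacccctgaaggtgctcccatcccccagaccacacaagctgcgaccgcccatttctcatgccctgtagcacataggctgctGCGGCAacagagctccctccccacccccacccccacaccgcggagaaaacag
Airn, chr17:12741371-12741670: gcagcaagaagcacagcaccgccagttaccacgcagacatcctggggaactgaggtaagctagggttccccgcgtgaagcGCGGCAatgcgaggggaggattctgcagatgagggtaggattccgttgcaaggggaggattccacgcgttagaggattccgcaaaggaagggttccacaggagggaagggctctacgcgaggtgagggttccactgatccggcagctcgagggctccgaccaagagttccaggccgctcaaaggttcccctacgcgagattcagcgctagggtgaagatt
Peg13, chr15:72809870-72810169: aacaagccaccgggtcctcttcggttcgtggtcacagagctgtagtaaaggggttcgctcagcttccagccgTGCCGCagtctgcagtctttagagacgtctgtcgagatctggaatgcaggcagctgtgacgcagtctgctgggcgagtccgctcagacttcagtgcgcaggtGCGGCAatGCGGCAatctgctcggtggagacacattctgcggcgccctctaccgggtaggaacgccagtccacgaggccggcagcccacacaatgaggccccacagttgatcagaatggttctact
Grb10, chr11:12026742-12027041: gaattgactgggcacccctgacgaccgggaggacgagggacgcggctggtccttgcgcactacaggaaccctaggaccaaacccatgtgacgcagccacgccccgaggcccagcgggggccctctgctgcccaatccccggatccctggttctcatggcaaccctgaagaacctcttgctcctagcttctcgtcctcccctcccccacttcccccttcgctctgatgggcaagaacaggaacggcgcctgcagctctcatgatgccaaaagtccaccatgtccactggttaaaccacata
The window at Peg3 held 3 hexamers and 16 CpG sites, that at Peg13 3 and 21, and that at Snrpn 2 and 10. Airn had 1 hexamer and 20 CpG sites. The Kcnq1ot1 and Grb10 windows held 16 and 15 CpG sites and no hexamer, although the whole methylated regions around them held 3 and 4. The Peg3 and Grb10 windows were moved off the highest point of their regions to avoid untranslated sequence, and at the highest point of the Peg3 region the window held 0 hexamers and 14 CpG sites. A hexamer in a window is a match of letters and not a measured binding site.

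Across all 16 control regions with a peak in every library, 8, Peg3 not among them, held a hexamer in the 300 bases around their highest point. The same window held it in 16 of the 101 imprinted gene regions (15.8%), and these 16 include the 8 control regions. Of all 75052 regions called in every library, 13.2% held it. The hexamer contains a CpG site, and the windows had a median of 20 CpG sites at control regions against 9 over all regions. Whether the hexamer is more frequent than this CpG content gives was not tested. The control regions were also the CpG-rich end of the methylated genome. Their median was 4.34 CpG sites per 100 bp against 1.78 over all regions and 1.66 over the imprinted gene regions. They were wider, with a median of 2541.5 bp against 1429 bp. In the plot of CpG density, the other regions of the imprinted genes follow the curve of all regions and the control regions stand to its right.

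**Figure D1:**
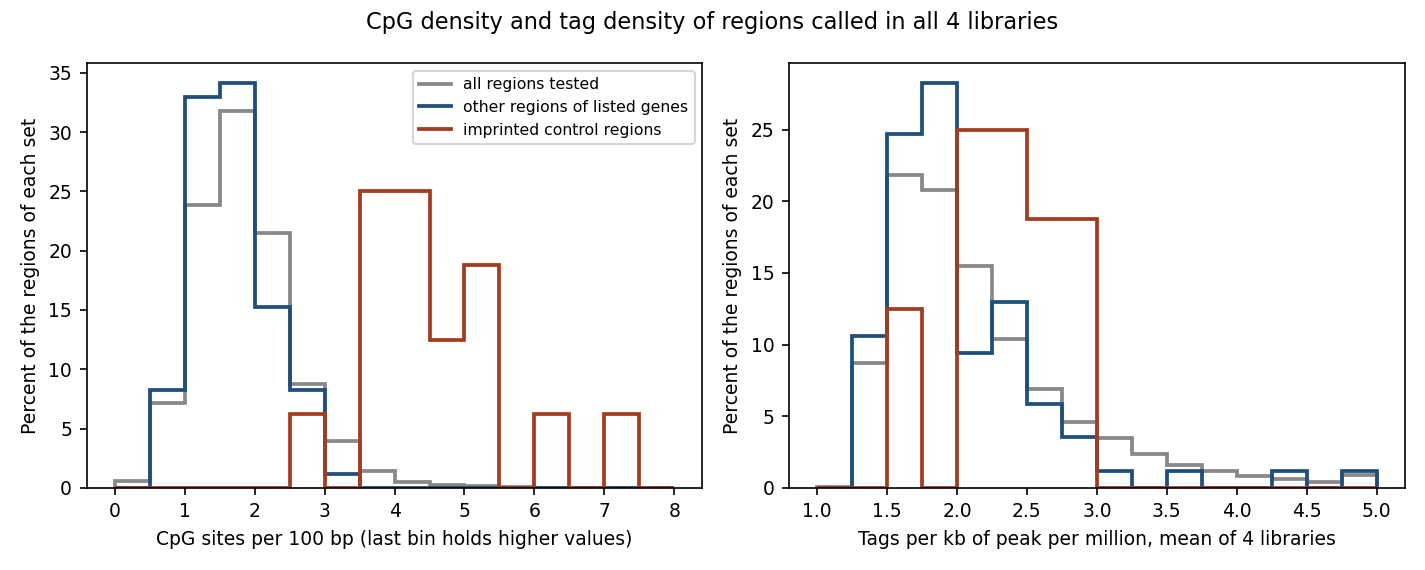
Histograms of CpG sites per 100 bp (left) and mean tag density over the 4 libraries (right) for all 75052 regions called in every library, the 85 other regions of the imprinted genes and the 16 control regions, each as percent of its set. In CpG density 15 of the 16 control regions lie above 3.5 sites per 100 bp, while in tag density they overlap the other sets.

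Methylation was found at 17 of 18 control regions. They were sought at the start of the governing transcript, within 2000 bp of it, and for H19 in the stretch 2 to 5 kb upstream of the gene. All 4 libraries had a peak in 16 of them. The exceptions were the region at Nespas and the Gnas XL transcript, called in 3 libraries, and the H19 control region, over which no merged region lay in any library. A peak in every library was seen at 38% of the imprinted gene regions and at 40.3% of all regions. Those shares are of merged regions, whereas the control regions were sought at set positions and were wider, so the shares are not directly comparable. No control region was called in 1 genotype only.

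Methylation of a CpG-dense gene start is otherwise uncommon. A start was taken as CpG-dense when the 500 bp on either side had over 50% GC and an observed to expected CpG ratio above 0.6. Of the 9740 such starts of protein-coding genes, 82 lay under a peak in every library, or 0.842%. Of the imprinted genes, 20 had a CpG-dense start, and 8 of these were under a peak in all 4 libraries. They were Mcts2, Nnat, Sgce, Peg10, Nap1l5, Peg3, Usp29 and Zrsr1, all of which lie within a control region. The other 12, among them Igf2r, Cdkn1c, H13 and Ube3a, were not. All 11 control regions whose governing start was CpG-dense carried a peak in every library, as did 9 of the 11 with stricter peaks and 11 of 12 when the criteria were applied to 250 bp on either side.

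Between genotypes, no imprinted gene region passed the test of tag counts. The test was edgeR's quasi-likelihood test over the 75052 regions with a peak in every library, and a call needed an FDR under 0.05 together with a change of more than 1.5-fold. It called 0 of the 101 imprinted gene regions lower and 0 higher in βRapKO, and 0% of all regions in either direction. At an unadjusted p under 0.05, 5 of the 101 were lower, or 4.95% against 3.93% of all regions, and 2 were higher, or 1.98% against 1.88%. These counts moved with the processing, to 1 lower and 4 higher with the tags in peaks as library size and to 13 and 1 per kb of peak. They were 9 and 1 without βRapKO replicate 2, 5 and 5 without βRapKO replicate 1, 2 and 2 without WT replicate 1, and 1 and 0 with stricter peaks. By size alone, 4 regions lay more than 1.5-fold below WT, a share of 3.96% against 1.77% of all regions, and 1 lay above, a share of 0.99% against 1.29%. DESeq2 and limma also called 0 at the same FDR and fold-change. At an unadjusted p under 0.05, DESeq2 gave 1 lower and 1 higher, and limma gave 6 and 2.

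By tags kept, the imprinted gene regions lay mostly a little below WT, like all regions called in every library. Mean CPM was below WT at 70 of the 101 regions (69.3%), against 61% of all regions. The βRapKO libraries both lay under the lower WT library at 29 regions, or 28.7% against 25.3% of all regions, and over the higher one at 4, or 3.96% against 11.6%. The median log2 fold-change was -0.10, against -0.061 over all regions. This direction depended on the scaling. With TMM normalization 58.4% of the imprinted gene regions and 49.5% of all regions were below WT, and with the tags in peaks as library size 37.6% and 32.3%. That last scaling set the median over all regions at 0.098 and that of the imprinted gene regions at 0.049. Relative to the median over all regions, the imprinted gene regions stood at -0.043 by tags kept and at -0.049 by tags in peaks. Without βRapKO replicate 1 the median was -0.022 and without βRapKO replicate 2 it was -0.17. Per kb of peak, 89 of the 101 regions (88.1%) were below WT, against 79.6% of all regions.

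The control regions had the same tendency. By tags kept, 14 of the 16 (87.5%, against 61% of all regions) had a lower mean CPM in βRapKO, with a median log2 fold-change of -0.14. With TMM 11 of 16 did (68.8%, against 49.5% of all regions). With the tags in peaks as library size 7 of 16 did (43.8%, against 32.3%). Relative to the median over all regions, the control regions stood at -0.080 by tags kept, -0.082 with TMM and -0.079 by tags in peaks. Without βRapKO replicate 1 the median was -0.0022 and 8 of 16 were lower, so that library carried most of the difference. At 5 control regions (Kcnq1ot1, Mest, Grb10, Nnat and Impact) both βRapKO libraries lay below both WT libraries, and at 0 above. The 5 are 31.2% of the 16, near the 25.3% of all regions, and the share above was 11.6% of all regions. The median tag density of the 16 was 2.39 and 2.71 in WT, against 2.01 and 2.24 in βRapKO. Over all regions these medians were 2.04 and 2.15 in WT and 1.84 and 1.87 in βRapKO. An exact permutation test of 2 against 2 libraries cannot give a p below 0.05, so no test was made of these medians.

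**Figure D2:**
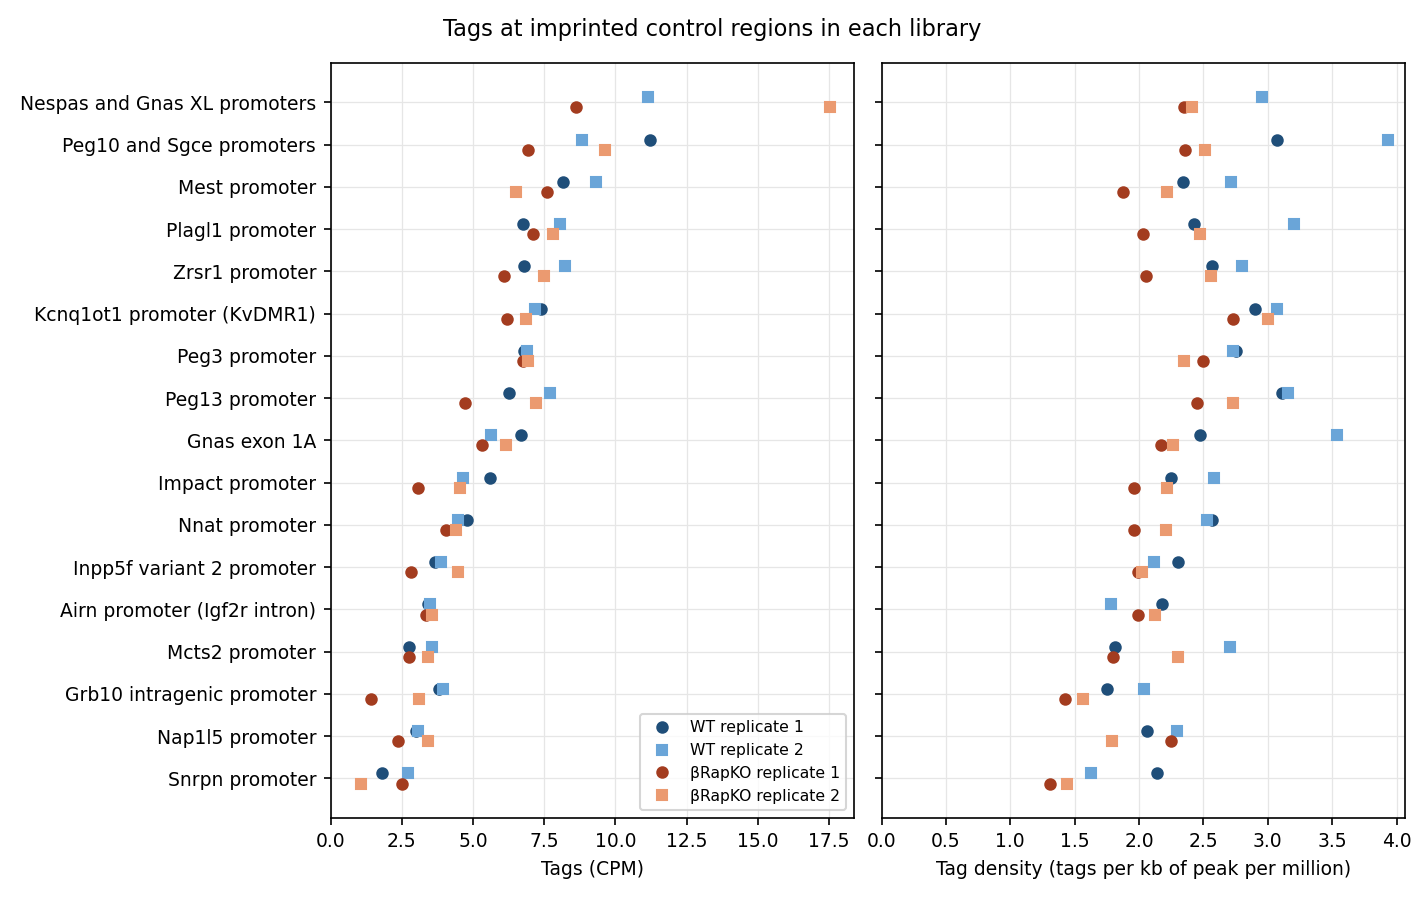
CPM (left) and tag density (right) of the 17 control regions with a peak, 1 point per library, WT in blue and βRapKO in red and orange. The Nespas and Gnas XL region has no point for WT replicate 1, where no peak was called, and in CPM WT and βRapKO points overlap at most regions.

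The H19 and Igf2 cluster is the classic imprinted pair, with the H19 noncoding RNA made from the maternal allele and the growth factor Igf2 from the paternal allele. The stretch upstream of H19, methylated on the paternal allele, carries the CTCF sites that insulate Igf2 from its enhancers. No merged region overlapped this stretch, at 142580143 to 142583143 of chromosome 7, in any of the 4 libraries. The nearest region covered the start of H19 itself and ended 1075 bp from it. It had 66 and 130 tags in the WT libraries, 114 in βRapKO replicate 2 and no peak in βRapKO replicate 1. Igf2 had 5 regions, of which 3 were called everywhere. Its strongest, over an exon, had 71 and 105 tags in WT and 50 and 73 in βRapKO. Both βRapKO libraries were thus lower in CPM, with 3.06 ± 0.41 CPM in WT and 2.11 ± 0.56 in βRapKO (SD, n = 2), but the FDR by edgeR was 0.858.

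The Kcnq1 domain is governed by the promoter of Kcnq1ot1, a long noncoding RNA within the potassium channel gene Kcnq1. Its maternal methylation keeps the RNA silent, while on the paternal allele the RNA silences neighbours such as Cdkn1c, an inhibitor of cyclin-dependent kinases, Phlda2, a restraint on placental growth, and the transporter gene Slc22a18. The Kcnq1ot1 promoter (143294586 to 143297138) was the strongest region of the domain in every library. It had 189 and 225 tags in WT and 181 and 200 in βRapKO. The difference, a log2 fold-change of -0.16 ± 0.076 (SE), had both βRapKO libraries below WT and an FDR of 0.887.

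Of the 32 regions of Kcnq1, 15 were called in 1 library only and 6 in all 4. One intronic region, at 143374775 to 143376888, had its middle 79.3 kb from the Kcnq1ot1 start. This region had the largest log2 fold-change, in either direction, of all 101 imprinted gene regions. It held 76 and 130 tags in WT but 47 and 48 in βRapKO, so the groups did not overlap. The CPM was 3.56 ± 0.83 in WT and 1.63 ± 0.026 in βRapKO (SD, n = 2), a log2 fold-change of -1.13 with an FDR of 0.428. Without WT replicate 2 it was -0.87, and per kb of peak -0.54.

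Among the genes that Kcnq1ot1 silences, a Cdkn1c region over the start of another transcript than the main one had 43 and 77 tags in WT, 42 in βRapKO replicate 1 and no peak in βRapKO replicate 2. Cdkn1c and Phlda2 each had 1 region called in every library, and both lay upstream of the gene. The Cdkn1c region had 84 and 105 tags in WT and 88 and 77 in βRapKO, and the Phlda2 region 89 and 115 against 83 and 92. In both, the βRapKO libraries were lower in CPM, with an FDR of 0.875 and 0.866. Slc22a18 had 4 regions and none was called in all libraries. Its strongest had 41, 49 and 46 tags and no peak in βRapKO replicate 2.

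**Figure D3:**
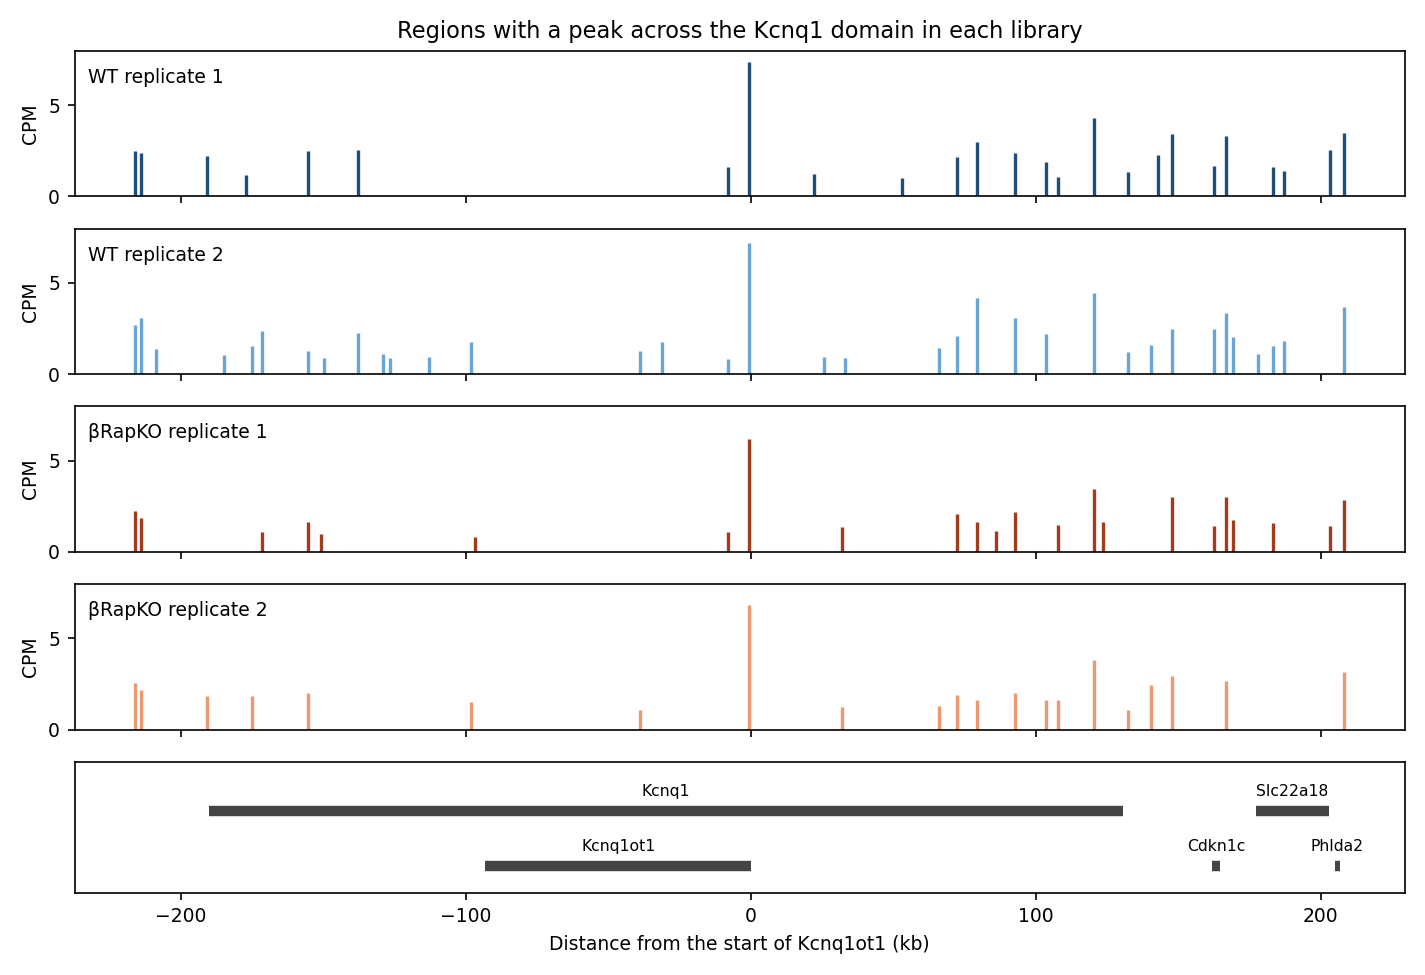
CPM of every region with a peak, by distance in kb from the start of Kcnq1ot1, in each of the 4 libraries, with gene bodies as bars below. The tallest line in each library is the control region at 0 kb, between 6.19 and 7.39 CPM, and few regions were called over the body of Kcnq1ot1 to its left.

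Peg3, a paternally expressed zinc finger gene, shares its control region with Usp29, a deubiquitinase gene that starts back to back with it. This region had the smallest difference in mean CPM of the 16 control regions. It had 174 and 216 tags in WT and 197 and 202 in βRapKO, or 6.85 ± 0.066 and 6.83 ± 0.13 CPM (SD, n = 2). The log2 fold-change was -0.0031 ± 0.022 (SE). Usp29 had 20 further regions, of which 8 were called in 1 library. The maternally expressed zinc finger gene Zim1 had 2 regions. The one called in all libraries, over an exon, had 90 and 89 tags in WT and 101 and 119 in βRapKO, a log2 fold-change of 0.25 with an FDR of 0.876.

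The Prader-Willi and Angelman cluster holds Snrpn, a splicing protein gene, the paternally expressed Ndn, Magel2 and Mkrn3, and Ube3a, a ubiquitin ligase whose imprint is known in neurons. Its control region at Snrpn was the weakest called in all libraries by CPM. It had 46 and 85 tags in WT and 73 and 31 in βRapKO, so replicates of 1 genotype differed more than the genotypes. The other genes of the cluster each had 1 region, and only that of Magel2 was called in every library. Ndn had 1 region, called in WT replicate 1 only with 32 tags, Mkrn3 had 1 called in WT replicate 2 only with 69, and Ube3a had 1 with 29 tags in WT replicate 1 and 33 in βRapKO replicate 1. Magel2 was the exception, with a region over its 3′ end of 106 and 88 tags in WT and 44 and 85 in βRapKO. Its log2 fold-change was -0.65 (FDR 0.858), and -0.24 per kb of peak. It was -0.25 without βRapKO replicate 1 and -0.35 without WT replicate 1. Without WT replicate 2 it was -0.91 and without βRapKO replicate 2 it was -1.21.

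Mest is a paternally expressed hydrolase gene. Its control region had 209 and 292 tags in WT and 222 and 190 in βRapKO, or 8.74 ± 0.81 and 7.05 ± 0.77 CPM (SD, n = 2). Both βRapKO libraries were lower, with a log2 fold-change of -0.31 and an FDR of 0.858. Just upstream, a region at 30732586 to 30734197 of chromosome 6 had 82 and 116 tags in WT and no peak in βRapKO. A smaller one at 30726705 to 30727631 had 30 and 54 tags in WT and no peak in βRapKO. The neighbour Copg2, which encodes a coat protein of transport vesicles, had 6 regions. Its strongest had 41 and 42 tags in WT and 42 and 41 in βRapKO.

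Gnas encodes the stimulatory G protein alpha subunit and has several promoters, of which the antisense RNA Nespas and the XL transcript share 1 control region and exon 1A has another. The shared region, chromosome 2 from 174294186 to 174301492, had 349 tags in WT replicate 2, 252 and 512 in βRapKO and no peak in WT replicate 1. Its peaks covered 3772 bp in WT replicate 2 and 3667 and 7275 bp in βRapKO. The tag density was 2.95 in WT replicate 2 and 2.35 and 2.41 in βRapKO. A neighbouring region over the start of the longest Gnas transcript had 254 and 144 tags in WT, 292 in βRapKO replicate 2 and no peak in βRapKO replicate 1. For both, the missing call fell in 1 library of 1 genotype. At exon 1A there were 171 and 176 tags in WT and 155 and 180 in βRapKO, with overlapping groups and a log2 fold-change of -0.10.

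One intronic Gnas region, at 174316506 to 174318121, was the only imprinted gene region more than 1.5-fold above WT. It had 38 and 39 tags in WT and 64 and 68 in βRapKO. The CPM was 1.36 ± 0.17 in WT and 2.26 ± 0.099 in βRapKO (SD, n = 2), a log2 fold-change of 0.73 that had an FDR of 0.659. It stayed above WT, between 0.51 and 0.88, under the other scalings.

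Peg10, a gene derived from a retrotransposon, and Sgce, which encodes a sarcoglycan, start back to back in 1 control region. It had 287 and 276 tags in WT and 202 and 281 in βRapKO, the most tags of the control regions called everywhere. βRapKO replicate 2 lay between the WT libraries in CPM, and the FDR was 0.866. In tag density both βRapKO libraries were lower, with 2.35 and 2.51 against 3.07 and 3.93 in WT. Per kb of peak, a measure by which 79.6% of all regions were lower, the log2 fold-change was -0.53. The FDR by edgeR per kb was 0.212. A second Peg10 region over an exon had 147 and 171 tags in WT and 128 and 228 in βRapKO. Its tag density was 2.98 and 2.87 in WT and 2.30 and 2.29 in βRapKO. The peak covered 3420 bp in βRapKO replicate 2, against 1929 and 1902 bp in WT. Sgce had calls of both kinds in its introns, with 2 regions called in both βRapKO libraries only and 1 in both WT libraries only.

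Grb10 encodes an adaptor that binds the insulin and IGF1 receptors and restrains their signal, and it neighbours Ddc, the aromatic amino acid decarboxylase gene. Its control region at an internal promoter was the densest in CpG of the 16, with 7.5 sites per 100 bp. It also had the largest log2 fold-change, in either direction, of the 16, though not the largest difference in CPM. WT libraries had 97 and 123 tags and βRapKO libraries 41 and 90, or 3.86 ± 0.095 and 2.24 ± 1.2 CPM (SD, n = 2). The log2 fold-change was -0.78 with an FDR of 0.858. It rested on βRapKO replicate 1, and without that library it was -0.32. The βRapKO replicate 1 peak was 984 bp wide, against 1973 bp in βRapKO replicate 2 and 2161 and 1928 bp in WT. Per kb of peak the log2 fold-change was -0.34, smaller than the -0.53 of the Peg10 and Sgce region. Ddc had 14 regions with 5 called everywhere, of which the strongest had 47 and 42 tags in WT and 62 and 53 in βRapKO.

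Igf2r encodes the receptor that clears IGF2, and Airn is the antisense RNA whose promoter, in an Igf2r intron, is the control region. Tags at the Airn promoter hardly differed between libraries, with 87 and 109 in WT and 98 and 104 in βRapKO, or 3.44 ± 0.056 and 3.46 ± 0.15 CPM (SD, n = 2). It was the only control region whose tag density was not lower in βRapKO, with a log2 ratio of 0.057. The strongest Igf2r region lay over an exon, with 198 and 283 tags in WT and 176 and 217 in βRapKO. There both βRapKO libraries were lower, by a log2 fold-change of -0.32 with an FDR of 0.858. Airn had 8 regions, 6 of them called everywhere.

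Several control regions govern single genes or small pairs. Nnat, a small membrane protein gene known in neurons and beta cells, had 122 and 140 tags in WT and 118 and 128 in βRapKO. That was 4.62 ± 0.21 and 4.21 ± 0.25 CPM (SD, n = 2), with both βRapKO libraries lower and an FDR of 0.917. Plagl1, a zinc finger gene tied to transient neonatal diabetes in people, had 173 and 252 tags in WT and 208 and 228 in βRapKO. Its log2 fold-change was 0.012, and a second Plagl1 region over an exon stood at 0.38 with 37 and 51 tags in WT and 45 and 72 in βRapKO. Impact, an inhibitor of the amino acid sensor GCN2, had 143 and 146 tags in WT and 90 and 132 in βRapKO, with a log2 fold-change of -0.43 and an FDR of 0.858. Without βRapKO replicate 1 it was -0.18 and without βRapKO replicate 2 it was -0.73. For Plagl1 the groups overlapped, whereas at Nnat and Impact they did not.

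Other control regions are promoters of retrogenes or internal transcripts that sit inside a host gene. Zrsr1, a gene related to a splicing factor, lies in Commd1 and had 174 and 258 tags in WT and 178 and 218 in βRapKO. Mcts2 lies in H13, a signal peptide peptidase gene, and had 70 and 111 tags in WT and 80 and 100 in βRapKO. Nap1l5, of the nucleosome assembly family, lies in Herc3 and had 77 and 96 tags in WT and 69 and 100 in βRapKO. The genotypes overlapped in all 3, with log2 fold-changes of -0.15, -0.026 and -0.069. The hosts were methylated within their bodies but not under a peak in every library at their own starts. Herc3 had 6 regions, each called in all libraries, with medians near WT at -0.060. The H13 region with the most tags, over an exon, had 127 and 186 tags in WT, 160 in βRapKO replicate 2 and no peak in βRapKO replicate 1.

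Inpp5f, a phosphoinositide phosphatase gene, showed 15 regions. The control region at its internal promoter had 94 and 121 tags in WT and 82 and 130 in βRapKO, with overlapping groups. A region upstream of the whole gene had more tags, with 266 and 333 in WT and 275 and 288 in βRapKO. There both βRapKO libraries were lower, by a log2 fold-change of -0.12 with an FDR of 0.891. Rasgrf1, an exchange factor for Ras, had 14 regions, 8 of them called everywhere and 7 of those below WT in mean CPM. Its strongest had 87 and 105 tags in WT and 81 and 93 in βRapKO. The repeat that controls Rasgrf1 lies further upstream than the 5 kb used here.

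Peg13 is a noncoding RNA inside Trappc9, a vesicle trafficking gene, next to the potassium channel gene Kcnk9. The Peg13 promoter had 160 and 241 tags in WT and 138 and 210 in βRapKO, with overlapping groups and a log2 fold-change of -0.23. Trappc9, the longest gene of the list, held 56 of the 266 regions and 22 of the 101 called everywhere. Its regions went both ways, with 12 below and 10 above WT. An intronic region at 73008034 to 73009992 of chromosome 15 had 77 and 67 tags in WT and 47 and 45 in βRapKO, a log2 fold-change of -0.71 with an FDR of 0.840. Without WT replicate 1 it was -0.44, and per kb of peak -0.29. An exonic region at 73025402 had 103 and 135 tags in WT and 162 and 172 in βRapKO, a log2 fold-change of 0.46 with an FDR of 0.838. Its tag density was nevertheless lower in βRapKO, with a log2 ratio of -0.36, and its βRapKO peaks were wider. The region with the highest density of the list lay over a Trappc9 exon, with densities of 7.85 and 8.73 in WT and 5.61 and 6.10 in βRapKO. Kcnk9 had 3 regions, of which the strongest had 94 and 148 tags in WT and 107 and 127 in βRapKO.

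**Figure D4:**
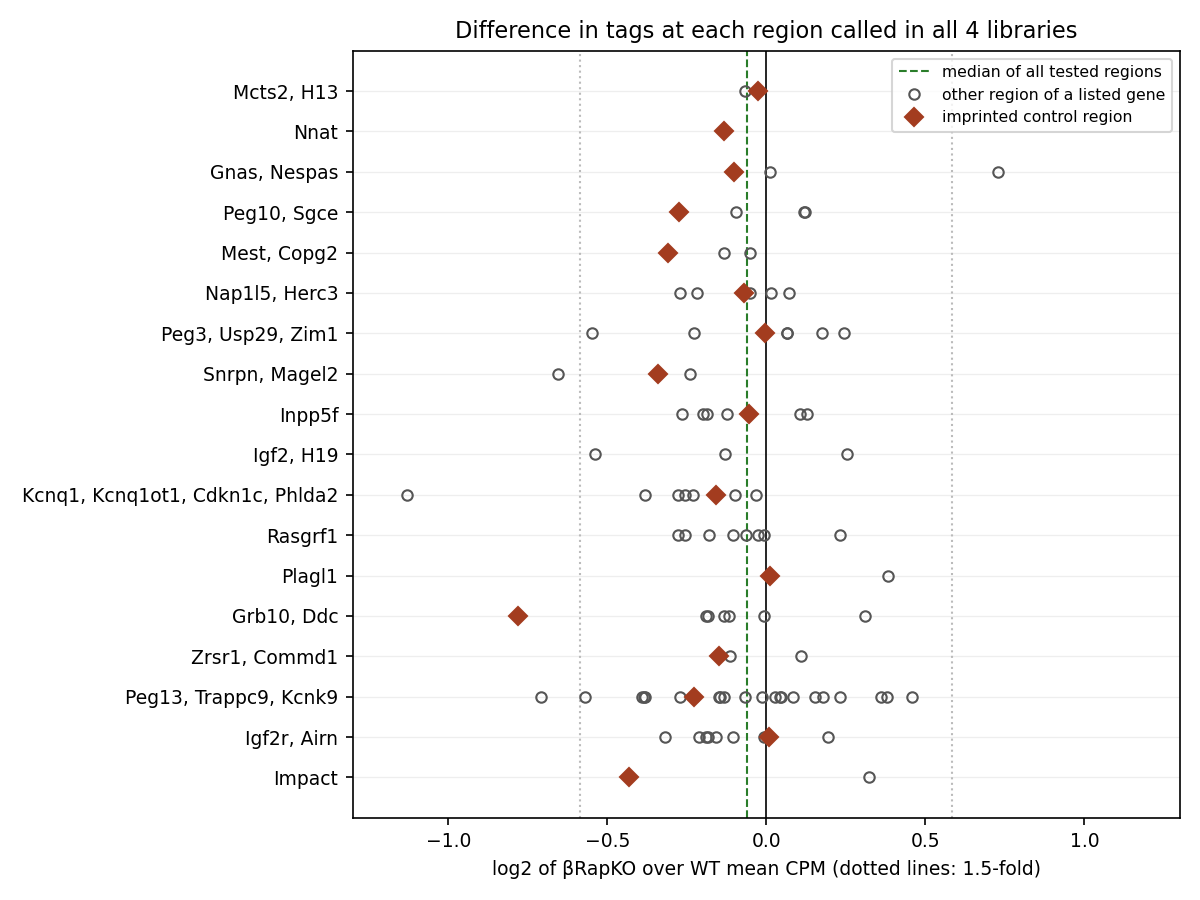
Log2 of βRapKO over WT mean CPM for each of the 101 imprinted gene regions called in every library, by locus, with control regions as diamonds and the others as circles. Dotted lines mark 1.5-fold and the dashed line the median of all tested regions at -0.061. The Kcnq1 intron lies farthest left at -1.13 and the Gnas intron farthest right at 0.73.

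Calls made in 1 genotype alone were few. Both WT libraries and no βRapKO library had a peak at 8 of the 266 regions, or 3.01% against 4.16% of all regions. Both βRapKO libraries and no WT library had one at 5, or 1.88% against 1.58%. After the upstream Mest region, the WT-only regions with most tags were in introns of Trappc9, with 66 and 67 tags, Kcnq1, with 65 and 70, and Slc22a18, with 36 and 56, followed by the smaller Mest region. The βRapKO-only regions with most tags were in introns of Sgce, with 67 and 58, Snrpn, with 53 and 70, Sgce again, with 49 and 46, Copg2, with 35 and 47, and Kcnq1, with 40 and 36. All of these lay outside the control regions. Another 76 regions, or 28.6% against 27.5% of all regions, were called in 1 library only. A peak was missing from βRapKO replicate 1 alone at 15 regions, or 5.64% against 5.34% of all regions, and from βRapKO replicate 2 alone at 16, or 6.02% against 4.27%. It was missing from WT replicate 1 alone at 5, or 1.88% against 4.30%, and from WT replicate 2 alone at 5, or 1.88% against 1.66%.

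The listed genes that keep imprints had no region that passed the test. Among 16 maintenance factors, such as Dnmt1, Uhrf1, Zfp57 and Trim28, 15 had a region and 29 regions were called in every library. Of these 29, 15 were below and 14 above WT in mean CPM, where 61% of all regions were below, and 0 passed the FDR or the fold-change in either direction. Their median log2 fold-change was -0.0052. Among 38 further imprinted genes outside this list, 93 regions were called in every library, 56 below and 37 above WT, about the split of all regions. Of the 93, 0 passed the FDR, 2 were more than 1.5-fold below and 1 above WT, against 1.77% and 1.29% of all regions, and their median log2 fold-change was -0.056.

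As DNA and not RNA was measured, the tissue could be checked only by calls over the starts of marker genes. Of the 8 endocrine islet marker genes, 0 had a start under a peak in every library. The same held for the 5 markers of exocrine and duct cells and the 2 of blood and endothelium, so these calls do not tell islet cells from other cells.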

How the data were processed

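MeDIP-seq of islet DNA gave 4 libraries, 2 of each genotype, grouped by the genotype in the labels. Per the labels, reads were aligned to mm10 with Bowtie2 2.2.5. The labels also name mm9, but the peak positions fit GRCm38: no peak passed a chromosome end, and CpG sites per 100 bp had a median of 1.60 in merged regions against 0.817 in windows 100 kb away. Per the file headers, the authors called peaks with MACS 1.4.2 (the labels write 0.14.2) library by library with no control, using a cutoff of 1e-05 for p, 10000 bp for the local background and 1 tag at each position. The authors deposited for each peak the count of tags, not normalized. The authors also deposited 10 times the −log10 of p from the caller, and the fold enrichment, a ratio to the local background. Tags outside peaks were not used here.

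Where a library had several peaks in a merged region, their tags were summed. The main test was edgeR 4.0.16 (R 4.3.3) on the counts of regions with a peak in all 4 libraries, with the tags kept after duplicate removal (25585533 to 31330751) as library size, no further scaling, and Benjamini-Hochberg adjustment over all 75052 regions. It was tested on simulated data. The log2 fold-change is that of mean CPM, and its SE comes from the spread of replicates. Summaries used Python 3.11.15, NumPy 2.4.6 and pandas 2.3.3. Genes came from GENCODE M21 and sequence from the RefSeq copy of GRCm38. Sequence windows were centred on the highest point of the region and moved where they met an untranslated region.

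The genes, control regions and lists were chosen with earlier results of these data known. Named with values were each control region, each gene's region with the most tags, regions past 1.5-fold, and the 5 regions per direction with the most tags among those called in 1 genotype. Other regions were chosen after their values were seen, namely those at the Gnas start, a Peg10 exon, a second Plagl1 exon, a Cdkn1c start, and 2 of Trappc9. The alternatives were TMM, 2 other library sizes, DESeq2 1.42.0, limma 3.58.1 on log2(CPM + 0.5), tags per kb, a minimum of 50 tags, stricter peaks (a score of 100 or more, as 10 times −log10 of p), joining at 50% overlap, other gene windows, a fold-change above 2, other limits for anchors and CpG-dense starts, the replicate block, and removal of each library. Counts of tags are subject to PCR and to the choice of peaks, so no counting intervals were computed.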

Additional observations from a re-analysis of the deposited data

How the results depend on the processing

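No setting that kept all 4 libraries called an imprinted gene region at an FDR under 0.05 together with the fold-change limit. The replicate block, which gave 0 lower and 0 higher, changed no call. Over the 75052 tested regions, the deviations of WT replicate 1 and βRapKO replicate 1 from their genotype means correlated at only 0.0474. The replicate numbers were therefore not taken as pairs. With the tags in peaks as library size, the median log2 fold-change turned to 0.049 for the imprinted gene regions and 0.019 for the control regions, and that of all tested regions to 0.098. The median of all regions was 0.0028 with TMM and 0.0014 with DESeq2. Per kb of peak the median of the imprinted gene regions was -0.20, and removal of each library in turn gave -0.17 to -0.022 and, for the control regions, -0.22 to -0.0022. The cause of these shifts was not tested beyond the library sizes and peak widths that define each setting.

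Regions past the fold-change, 4 lower and 1 higher, became 2 and 2 with the tags in peaks, 2 and 0 per kb of peak, 0 and 0 with at least 50 tags in every library, 0 and 0 with stricter peaks, and 1 and 0 at a fold-change above 2. They ranged from 4 to 9 lower, the 9 without βRapKO replicate 2, and from 1 to 3 higher, the 3 without βRapKO replicate 1, when a library was left out. Regions called in WT only numbered 23 to 44 and in βRapKO only 10 to 17 when a library was left out, since fewer libraries then had to share or lack a peak. The median tag density of the control regions was 7.56 in WT and 7.06 in βRapKO when scaled to the tags in peaks, and 1.27 and 1.05 when scaled to the tags before duplicate removal. Control regions called in every library numbered 13 with stricter peaks and 16 with the 50% overlap or the shorter distance to the start. CpG-dense starts under a peak in every library were 0.678% with stricter peaks and 1.02% with the criteria over 250 bp, and those of control regions 81.8% and 91.7%. With 2 libraries per genotype and a median of 2.38 CPM per region in WT replicate 1, small differences could not be told from replicate spread.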

Other observations

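The Rasgrf1 repeat is methylated on the paternal allele and lies about 30 kb upstream of the gene, outside the window used for gene regions. Between 25 and 35 kb upstream of the Rasgrf1 start, a stretch chosen after the other values were seen, 1 merged region was called in all 4 libraries, at 89882102 to 89884810 of chromosome 9. It had 132 and 149 tags in WT and 94 and 106 in βRapKO, or 5.16 and 4.76 CPM against 3.22 and 3.63. Both βRapKO libraries lay below both WT libraries, with a log2 fold-change of -0.53, an unadjusted p of 0.0131 by edgeR and an FDR of 0.809. The region held 1.22 CpG sites per 100 bp, below the median of 1.78 over all tested regions, and whether it covers the repeat itself was not tested.

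On the other side of the H19 control region from H19, the nearest merged region began 22118 bp away and had 51 and 71 tags in WT and 33 and 65 in βRapKO.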
